A study of Homo sapiens with 2 samples.

Results

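FN1 is the human gene for fibronectin, and its RNA was examined here for the places where ADAR1, an enzyme that edits adenosine to inosine in double-stranded RNA, was crosslinked. The members are the ADAR1 clusters on the minus strand of chromosome 2 whose midpoint falls between 216225100 and 216301000 (hg19), the interval given for FN1. There were 23 such clusters among 23782 in the whole deposited list. The interval and the gene were chosen with the cluster positions known, so the number, the class and the crowding of the clusters are given as a description and not as the outcome of a test.

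Fibronectin is a large secreted glycoprotein that cells assemble into fibrils of the extracellular matrix, where it binds integrins, collagen and heparin. Its coding sequence is built from many small exons that encode repeated type I, type II and type III modules, and the extra domains A and B and the variable region are included or skipped by alternative splicing. Glioblastoma cells are known to produce fibronectin as part of the matrix around them. ADAR1 in human cells is best known for acting on Alu repeats, primate-specific retrotransposons whose inverted copies pair within a transcript, so clusters outside Alu sequence make up the smaller class of its contacts.

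The study used CLIP-seq, in which ultraviolet light links a protein to the RNA it touches before both are pulled down together and the RNA is sequenced. The cells were U87MG, an established human glioblastoma (astrocytoma) line, at passage 6, and the labels name no other treatment. They were irradiated on ice at 254 nm in 2 exposures of 800 mJ/cm2, and the series holds 2 libraries, AB1 and AB2, named for the ADAR1 antibody. AB1 and AB2 carry 1 and the same antibody entry in the labels although the series speaks of different antibodies, and the deposited list has no column that separates them. It gives position, strand and class only, so read depth, the spread between libraries and the strength of a cluster are unknown, and no value below has a replicate check. No control library and no measure of RNA abundance was used here, so enrichment over the amount of FN1 RNA cannot be given.

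The clusters of FN1 were almost all outside Alu repeats. The authors' class was non-Alu for 22 of the 23 clusters, or 95.7% (Wilson 95% interval 79.0 to 99.2%, counting error only), where 15.1% of all clusters in the list were non-Alu. FN1 held 0.614% of the 3582 non-Alu clusters of the list and 13.2% of the 167 non-Alu clusters on the minus strand of chromosome 2. The plus strand of the same interval held 0 clusters, so every cluster lay on the strand from which FN1 is transcribed. The nearest clusters outside the interval, on either strand of chromosome 2, were Alu clusters 265306 bases beyond the 5′ end and 379377 bases beyond the 3′ end of the group. No other cluster of the list came closer to the FN1 group.

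The label FN1 could be set beside an annotation only by chromosome, strand and length, which does not test the position of the interval. The hg19 interval is 75901 bases long. GENCODE release 29, which is on GRCh38 and was not used for positions, also has FN1 on the minus strand of chromosome 2, with a length of 75733 bases, 168 bases less than the interval. Exons, introns and untranslated regions were not assigned to single clusters, because no annotation or genome of hg19 was used, and for the same reason no cluster sequence is printed.

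Clusters were found along most of the gene and not at 1 place. They ran from 216236580 to 216300791, a span of 64212 bases, of which they covered 7.42%, and they covered 4764 bases or 6.28% of the whole interval. When the interval was divided into 4 equal parts from the 5′ end, the parts held 6, 6, 6 and 5 clusters. The bases covered were similar too, at 1130, 1363, 1151 and 1120. The 5′-most cluster ended 209 bases inside the 5′ edge of the interval. At the 3′ edge, by contrast, the last 11480 bases, or 15.1% of the interval, held no cluster.

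**Figure D1:**
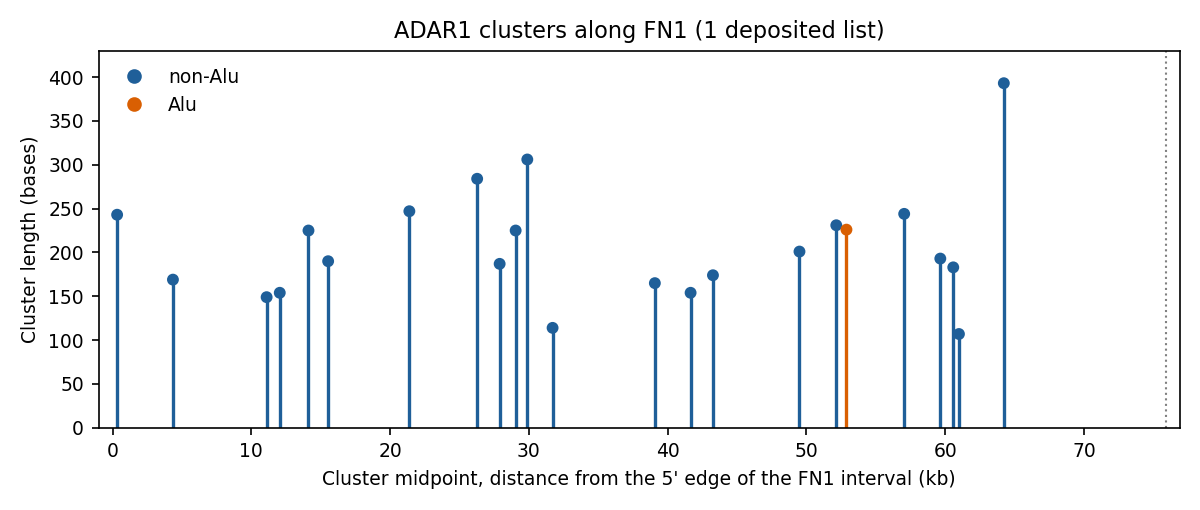
Position (x axis, kb from the 5′ edge of the FN1 interval) and length (y axis, bases) of each of the 23 ADAR1 clusters, with non-Alu clusters in blue, the Alu cluster in orange and the 3′ edge of the interval as a dotted line. The clusters are spread over the gene from 0.33 to 64.2 kb, and the longest, of 393 bases, is the last before the empty 3′ end.

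Read from the 5′ to the 3′ end, the clusters fell into 5 groups separated by the 4 gaps of more than 5000 bases, a limit chosen after the gaps were seen. The groups held 2, 4, 6, 3 and 8 clusters. The 4 separating gaps were 6592, 5634, 7230 and 6047 bases long and together made up 39.7% of the span. Within the groups the clusters covered 9.74%, 15.6%, 13.0%, 11.3% and 11.8% of the bases. These shares leave out the 4 separating gaps, so they depend on the limit chosen.

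The group at the 5′ end held 2 non-Alu clusters. The first, from 216300549 to 216300791, was 243 bases long and lay at 0.43% of the way along the interval. The second, from 216296564 to 216296732, was 169 bases long and followed after a gap of 3816 bases. Only gaps of 4620 and 3924 bases further along the gene were wider among the gaps inside a group.

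The next group held 4 non-Alu clusters in 4602 bases and had the highest coverage. It opened with a pair only 795 bases apart, from 216289823 to 216289971 (149 bases) and from 216288874 to 216289027 (154 bases). Another pair, 1209 bases apart, followed from 216286769 to 216286993 (225 bases) and from 216285370 to 216285559 (190 bases). The group thus consisted of 2 pairs, with 1880 bases between them.

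The third group, of 6 non-Alu clusters in 10501 bases, held the longest clusters of the 5′ part of the gene. Its first cluster, from 216279489 to 216279735, was 247 bases long and stood 4620 bases from the next, the widest distance of any FN1 cluster to its nearest neighbour. Then came 5 clusters in close order, with gaps of 1385, 947, 574 and 1612 bases. They lay from 216274585 to 216274868 (284 bases), from 216273013 to 216273199 (187 bases), from 216271841 to 216272065 (225 bases), from 216270961 to 216271266 (306 bases) and from 216269235 to 216269348 (114 bases). The second-longest and the second-shortest cluster of FN1 were therefore next to each other in this group. The gap that followed, 7230 bases, was the widest between any neighbouring FN1 clusters.

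The fourth group held 3 non-Alu clusters, all shorter than the FN1 median. They lay from 216261840 to 216262004 (165 bases), from 216259270 to 216259423 (154 bases) and from 216257649 to 216257822 (174 bases). The gaps between them were 2416 and 1447 bases. This was the group with the lowest median length, 165 bases, against 236 bases in the third group.

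The group nearest the 3′ end was the largest and held the only Alu cluster. Its first members lay from 216251401 to 216251601 (201 bases) and from 216248733 to 216248963 (231 bases). The Alu cluster, from 216248003 to 216248228, was 226 bases long and began 504 bases downstream of the second of these. It lay among non-Alu clusters: its nearest neighbour was non-Alu, and on its other side the next cluster, also non-Alu, lay 3924 bases away. That cluster, from 216243835 to 216244078, was 244 bases long.

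The remaining members of this group included the closest pair of the gene. The clusters from 216241256 to 216241448 (193 bases), from 216240329 to 216240511 (183 bases) and from 216239957 to 216240063 (107 bases) were 744 and 265 bases apart. The last of these was the shortest FN1 cluster. The 3′-most cluster, from 216236580 to 216236972, was 393 bases long, the longest of the gene, and longer than 98.4% of the non-Alu clusters elsewhere in the list.

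The gaps varied over a wide range. The median of the 22 gaps was 2133 bases (95% interval from order statistics 947 to 3924). They ranged from 265 to 7230 bases, with 6 gaps of at most 1000 bases, 12 from there up to 5000 bases and 4 longer ones. The standard deviation of the gaps was 0.789 times their mean. Among the 12 clusters nearer the 5′ edge of the interval the median gap was 1612 bases, with a range of 574 to 6592. Among the 11 nearer the 3′ edge it was 2401 bases, with a range of 265 to 6047, so the ranges overlapped over most of their extent. The widest gap, of 7230 bases, lay between these sets of clusters and is in neither range.

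**Figure D2:**
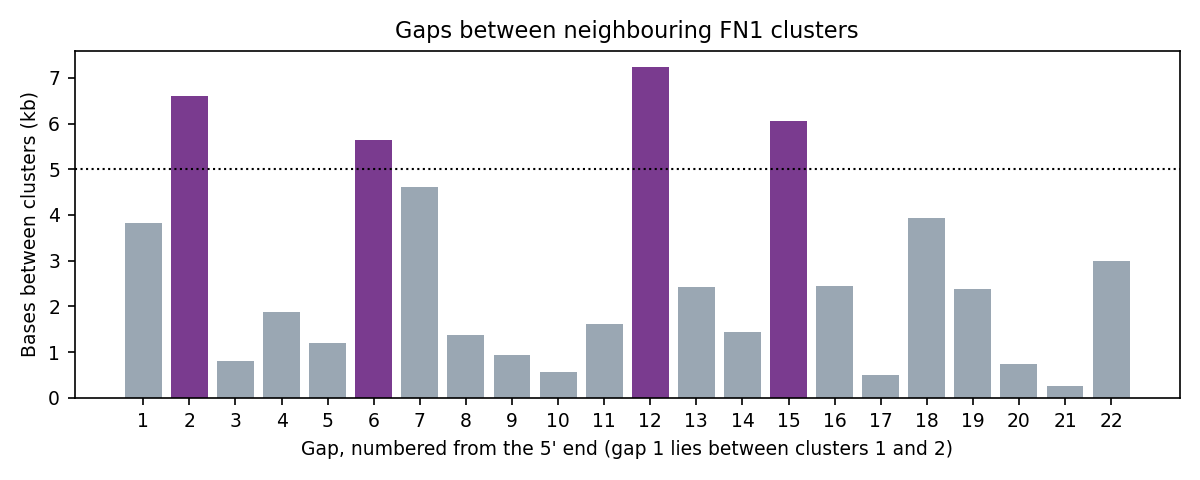
Bases between neighbouring FN1 clusters (y axis, kb) in order from the 5′ end (x axis), with gaps over 5000 bases in purple and that limit as a dotted line. The 4 purple gaps, of 5634 to 7230 bases, separate groups of 2, 4, 6, 3 and 8 clusters.

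A close neighbour was common in FN1. A same-strand cluster lay within 1000 bases of 10 of the 23 FN1 clusters (43.5%). Among the non-Alu clusters alone this held for 9 of 22, or 40.9%, and for 17.1% of all non-Alu clusters in the list. Within 10000 bases, each of the 23 clusters had a neighbour, against 48.7% of all non-Alu clusters. The median distance to the nearest same-strand cluster was 1209 bases in FN1 and 10962.5 bases over all non-Alu clusters. Other crowded stretches of the list, described further on, had shares from 0% to 100% within 1000 bases. Since FN1 was picked for its many clusters, these shares describe the crowding that led to the choice.

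Cluster lengths, which the choice of the gene did not use directly, had nearly the same median as those of other non-Alu clusters but were higher at both quartiles. The median was 193 bases for the 23 FN1 clusters (95% interval 169 to 231) and 191.5 bases for its 22 non-Alu clusters (165 to 243). The 3560 non-Alu clusters outside FN1 had a median of 191 bases (189 to 193). Of the 22 non-Alu clusters of FN1, 11 were longer than that median and 11 lay between the quartiles of the others, 141 and 222 bases. The rest were mostly long, with 9 above the upper of these quartiles and 2 below the lower. The quartiles of the 22 FN1 clusters were 166 and 240 bases. Lengths were not compared by a test, because clusters of 1 gene are not independent samples.

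The range of lengths was narrower in FN1 than in the list. The FN1 clusters ranged from 107 to 393 bases, and the other non-Alu clusters from 14 to 1509 bases, a range that a larger number of clusters makes wider by itself. In FN1, 17 clusters were 150 to 250 bases long, 3 were shorter and 3 were longer. Clusters of more than 250 bases made up 8.27% of the whole list, of which 84.9% were Alu clusters, whereas the 3 in FN1 were non-Alu. Of the non-Alu clusters outside FN1, 88.3% were shorter than 247 bases and 94.5% were shorter than 284 bases. The PCR products that were selected on the gel measured 75 to 250 bp with linkers, so the 3 FN1 clusters above 250 bases were longer than a selected product. Linkers were not subtracted, so shorter clusters may also be longer than the RNA part of a product. Lengths of the 12 clusters nearer the 5′ edge (median 207.5 bases, 114 to 306) overlapped those of the 11 nearer the 3′ edge (median 193 bases, 107 to 393).

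The exons of FN1 give a scale for these lengths, although clusters could not be placed on them. In GENCODE release 29, the coding FN1 transcript with the most exons has 47, of which 45 are inner exons. These inner exons have a median length of 153 bases and range from 87 to 273 bases. The final exon is 1173 bases long. Of the 23 clusters, 20 were longer than the median inner exon and 3, of 284, 306 and 393 bases, were longer than the longest inner exon of that transcript. Other coding FN1 transcripts in the annotation include an inner exon of 467 bases, which no cluster exceeded. Of the 45 inner exons, 7 were at least as long as the median cluster. The clusters were thus mostly longer than the inner exons of that transcript, with ranges that overlapped. The list held fewer than 1 cluster for every 2 exons, at 23 clusters for 47 exons. The introns of that transcript have a median length of 1185 bases and reach 5037 bases, so the 4 gaps of more than 5000 bases were all longer than any 1 of its introns. Annotation and list are on different builds, and whether each cluster is exonic or intronic was not tested.

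**Figure D3:**
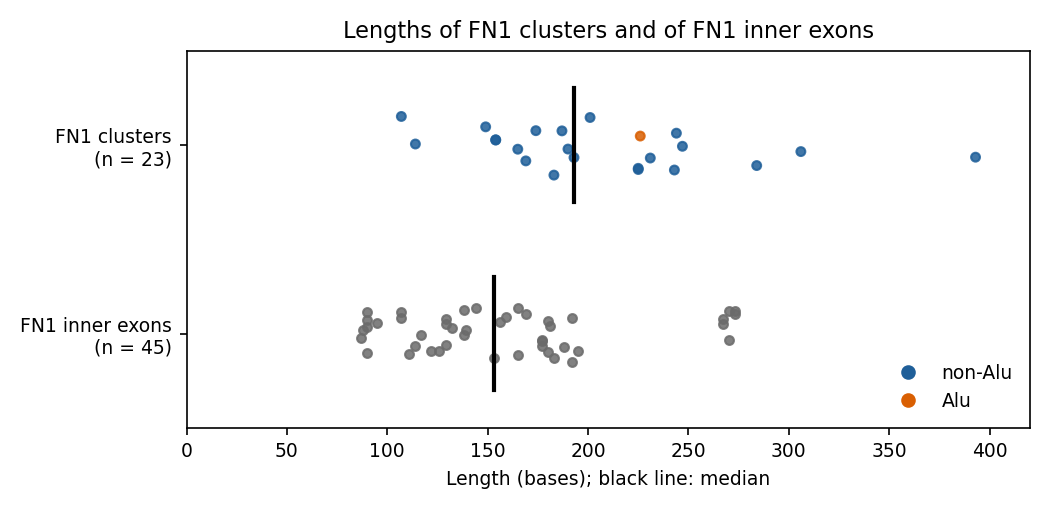
Lengths in bases (x axis) of the 23 FN1 clusters in the upper row, coloured by class, and of the 45 inner exons of the FN1 transcript with the most exons in the lower row (GENCODE release 29, GRCh38), with medians as black lines and vertical scatter only for legibility. The medians are 193 bases for clusters and 153 bases for inner exons, and 3 clusters lie beyond the longest inner exon, at 273 bases.

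Few places in the list had as many non-Alu clusters on 1 strand as FN1. Stretches of the length of the FN1 interval were placed on the list, each starting at a non-Alu cluster and taken without overlap from the highest count down. Clusters just outside a stretch already taken can therefore fall in no stretch. Of 2269 such stretches outside FN1, 1626, or 71.7%, held 1 non-Alu cluster, and 13 held 10 or more. FN1, with 22, was exceeded by 1 stretch, with 29 clusters on chromosome 11, and the next below it held 17. FN1 was thus in place 2 by non-Alu clusters, and in the same place by bases covered. After joining clusters within 50 bases of each other, which left all FN1 clusters as they were, no other stretch held more than 20 and FN1 came first.

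The stretches nearest to FN1 in number differed from it in how the clusters were arranged. They are named by position, since genes were not assigned in hg19. In FN1, the 22 non-Alu clusters covered 7.07% of 64212 bases, with a median gap of 2386 bases. On chromosome 11, the 29 non-Alu clusters of a minus-strand stretch from 62285661 to 62301366 fell within 15706 bases and covered 53.8% of them, with a median gap of 118 bases. A neighbour within 1000 bases was found for 40.9% of the FN1 clusters and for 100% of these. FN1 was thus the more open of the pair.

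The other 4 stretches had spans closer to that of FN1, in which the widest gap between non-Alu clusters was 7230 bases. Chromosome 1 had 17 plus-strand clusters from 145293468 to 145362494 with a median gap of 4444.5 and a widest gap of 13551 bases, none with a neighbour within 1000 bases. A second minus-strand stretch of chromosome 2, with 16 clusters from 238232835 to 238293639, came close to FN1 in median gap, at 2196 bases, but its widest gap was 20930 bases. A neighbour within 1000 bases was found for 37.5% of its clusters. Chromosome 8 had 15 minus-strand clusters from 144940327 to 145007310 with a median gap of 1272.5 and a widest gap of 44069 bases. They were closer together than in FN1 by the median gap, and 66.7% of them had a neighbour within 1000 bases. Chromosome 9 had 14 minus-strand clusters from 117783182 to 117853424 with a median gap of 4510 and a widest gap of 16125 bases, and 14.3% had a neighbour within 1000 bases. The widest gap in FN1 was smaller than in each of these 4 stretches. The FN1 interval was drawn for 1 gene, whereas the stretches were placed without regard to gene ends. Their widest gaps may therefore lie between genes, which was not tested. FN1 held 1 Alu cluster on its strand, and the 5 stretches held none.

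**Figure D4:**
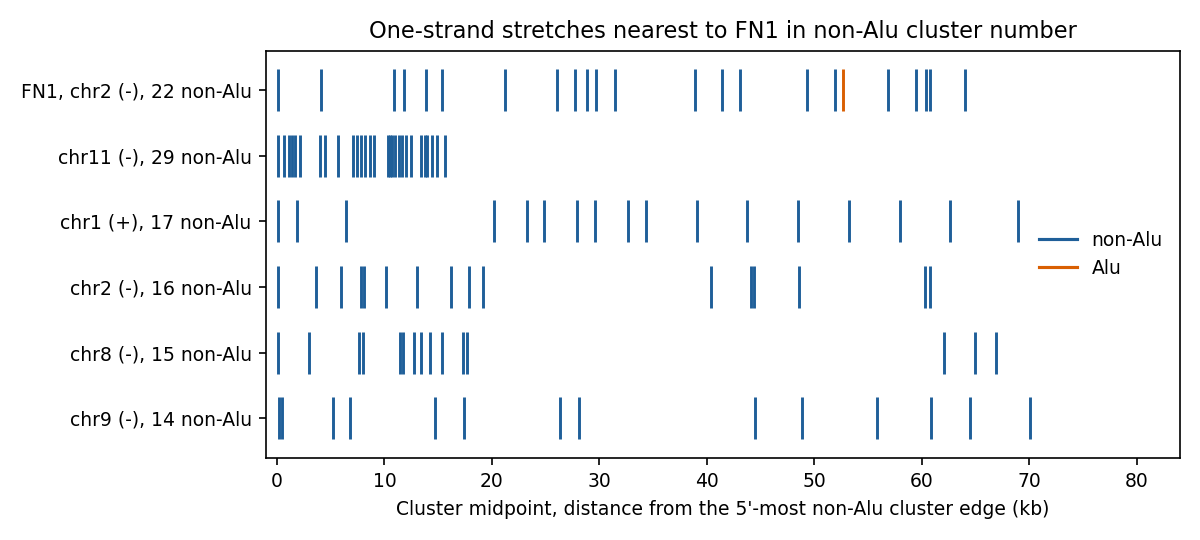
Midpoints of ADAR1 clusters (x axis, kb from the 5′-most non-Alu cluster) in FN1, in the top row, and in the 5 one-strand stretches of equal length nearest to it in number of non-Alu clusters, with strand and number at the left. FN1 clusters are spread over 64212 bases with no gap above 7230 bases, while the chromosome 11 stretch is packed into 15706 bases and 2 of the others have gaps of 20930 and 44069 bases. Stretches other than FN1 were placed without regard to gene ends.

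Relative to their mean, the gaps of FN1 varied less than those of most other crowded stretches. The standard deviation of its non-Alu gaps was 0.757 times their mean. Over the 13 other stretches with 10 or more non-Alu clusters this ratio had a median of 1.08 and ranged from 0.701 to 2.54, and 2 of the 13 had a lower value than FN1. The median length of the non-Alu clusters was higher than that of FN1 in 9 of the 13 stretches, whose medians ranged from 135.5 to 234 bases. The median gap was smaller than in FN1 in 8 of the 13. The share of the span that was covered was higher than in FN1 in 3 of them. The widest gap was smaller than in FN1 in 2 of the 13, among them the chromosome 11 stretch, at 1636 bases. These ratios depend on how the unknown cluster caller joined reads and on the choice of FN1 itself. They also depend on the stretches being placed without regard to gene ends, so that 1 stretch may hold clusters of several genes. They are given without a test.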

How the data were processed

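The authors deposited 1 list of clusters for AB1 and AB2 together, without a header, holding chromosome, start, end, class, the position repeated as text, and strand. Per the submitters' processing notes, the tools were cutadapt 1.1 and Novoalign 2.08.22 and the build was hg19. The sources used here do not say how clusters were called and with which thresholds, how AB1 and AB2 were combined, how reads that match several places were treated and how the Alu class was assigned. Each can change which clusters are listed and how long they are.

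Starts were read as counted from 0, and positions are printed counting from 1. Midpoints, lengths, edge-to-edge gaps and stretches were computed in Python 3.11.15 (pandas 2.3.3, numpy 2.4.6; scipy 1.17.1 for intervals), and the procedures were tested on simulated clusters. Intervals are Wilson 95% intervals for shares and order-statistic 95% intervals for medians. They cover counting error only, and no depth is known. They also treat clusters as independent, which clusters of 1 gene are not. For the covered share, single bases were treated as independent, which makes that interval too narrow. The gene, the interval and the comparisons were chosen with earlier results of these data known. Comparison stretches were the 5 nearest to FN1 in number of non-Alu clusters. No hypothesis test was run.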

Additional observations from a re-analysis of the deposited data

How the results depend on the processing

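Of 45 alternative values planned, 41 stayed within 1.5 times a count or rank, or within the 95% interval of a share or median. Most of these 41 could not have moved, so their number says little about stability. The plus strand held 0 clusters, the shortest FN1 cluster had 107 bases, and the narrowest gap had 265 bases. Taking clusters by any overlap, taking either strand, merging within 50 bases, and keeping clusters of at least 100 bases therefore left the same 23 FN1 clusters. Widening the interval by 10 kb on each side added no cluster and lowered the covered share to 4.97%, because the interval grew. That share was judged against 6.11 to 6.45%, the too narrow interval that counted single bases. The share of FN1 clusters with a neighbour was 0% within 200 bases and 69.6% within 2000 bases, against 43.5% within 1000 bases. After merging, FN1 moved to place 1 by non-Alu clusters. The number of groups was 6 with gaps over 4000 bases and 4 with gaps over 6000 bases, both limits chosen after seeing the data. No paired analysis was possible because AB1 and AB2 are not separated in the list, nor could either library be left out. Without read numbers, a weak cluster cannot be told from a strong one, and the empty 3′ end of FN1 cannot be read as absence of ADAR1.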
